A study of Arabidopsis thaliana with 54 samples.

Results

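The mitochondrial genome of Arabidopsis was represented by 149 of the 23997 gene rows analysed, taken as every row whose locus identifier begins with ATMG. Of these, 22 reached a mean of at least 1 FPKM (fragments per kilobase of gene per 1 M reads, a length-corrected level) in at least 1 group, and these are described below, libraries at 0 included. The threshold fell inside a continuous range of levels. NAD3 was the lowest gene above it, with a highest group mean of 1.00 FPKM, and ATMG09950 and NAD5C lay just below it at 0.98 and 0.97 FPKM. No read was recorded for 48 of the 149 rows in any library.

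Plant mitochondria keep a small genome that encodes part of the machinery of respiration. Its products include subunits of complex I (the NAD genes), complex III (COB), complex IV (the COX genes) and ATP synthase, proteins that mature cytochrome c, some ribosomal proteins, and ribosomal and transfer RNAs, beside many open reading frames of unknown function. Several genes, NAD1 and NAD5 among them, lie in pieces that are transcribed separately and joined by trans-splicing. Mature mitochondrial transcripts of plants mostly lack stable poly(A) tails, since the addition of such a tail marks an RNA for decay.

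The samples were whole Arabidopsis seedlings exposed for 5, 30 or 180 min to no compound (control) or to 1 of 5 compounds. Guvermectin (GV), a purine nucleoside, was applied at 10 µM, and the auxin indole-3-acetic acid (IAA), the cytokinin trans-zeatin (ZT), the brassinosteroid epibrassinolide (eBL) and the gibberellin GA3 at 1 µM each. The resulting 18 groups held 3 libraries each, 54 in all. The labels give no ecotype, seedling age or control solvent, and they do not state whether the 3 libraries of a group are separate cultures; a p-value here thus reflects the scatter of the libraries as made, possibly technical. Whether the RNA was selected for poly(A) tails is not given in the sources used here.

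Library totals implied by the size of 1 read were 17.8 to 23.8 M reads, of which 5.65 to 7.51 M lay in the rows analysed. Between mean levels of 10.5 and 344 FPKM there was no row, and genes in that range were not analysed here. No mitochondrial row lay above the gap. Libraries of a group correlated at 0.971 or more, apart from eBL 30 min replicate 3, whose lowest correlation with its group was 0.867. Markers of green tissue were present in every library (11 of 11 rows of a photosynthesis list of 12), as were 7 of 8 root markers of a list of 9, the exception being PRP1 at 0 in 1 library.

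The mitochondrial rows together held few reads. Each library had 133 to 692 of them, 6.64 to 35.5 RPM (reads per 1 M reads of the library), and 13101 over the series. Groups differed most at 5 min. The control libraries held 133, 146 and 135 mitochondrial reads, the GV libraries 692, 489 and 422, and the ZT libraries 351, 381 and 441. Every GV and ZT library lay above every control library. The mean ± SD was 7.04 ± 0.381 RPM in the control, 27.8 ± 6.99 RPM with GV and 18.8 ± 2.47 RPM with ZT (n = 3 each), so that GV stood at 3.95 times and ZT at 2.67 times the control. These sums run over all 149 rows, so the threshold on level does not enter them. Over the 127 rows that stayed below 1 FPKM in every group, GV at 5 min included, the ratios were 4.01 for GV and 3.09 for ZT. In RNA from whole seedlings, more mitochondria or cells of a kind and more transcript in each cannot be told apart.

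The other groups at 5 min lay closer to the control. GA3 stood at 1.67 times the control, with 231, 248 and 200 reads, IAA at 1.48 times and eBL at 1.10 times. All 5 ratios share the same 3 control libraries, which had the lowest group mean of the series in RPM. At 30 min the order was turned: the control had risen to 364, 312 and 280 reads, a mean of 16.7 ± 1.43 RPM, and all 5 compounds lay below it, at 0.534 (GV), 0.536 (ZT), 0.546 (GA3), 0.661 (IAA) and 0.71 times (eBL; 0.658 without its outlying library). At 180 min the control was back at 9.45 ± 0.106 RPM, and the 5 ratios were 1.10 to 1.43. Chloroplast rows held 1925 to 4025 reads per library. At 5 min their sum was below the control with all 5 compounds, at 0.743 times with GV and 0.808 times with ZT, where the mitochondrial sum was above it. The chloroplast sum at 30 min was below the control with GA3 (0.706), eBL (0.846; 0.842 without its outlying library) and GV (0.876), as the mitochondrial sum was, and above it with ZT (1.05) and IAA (1.21).

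**Figure D1:**
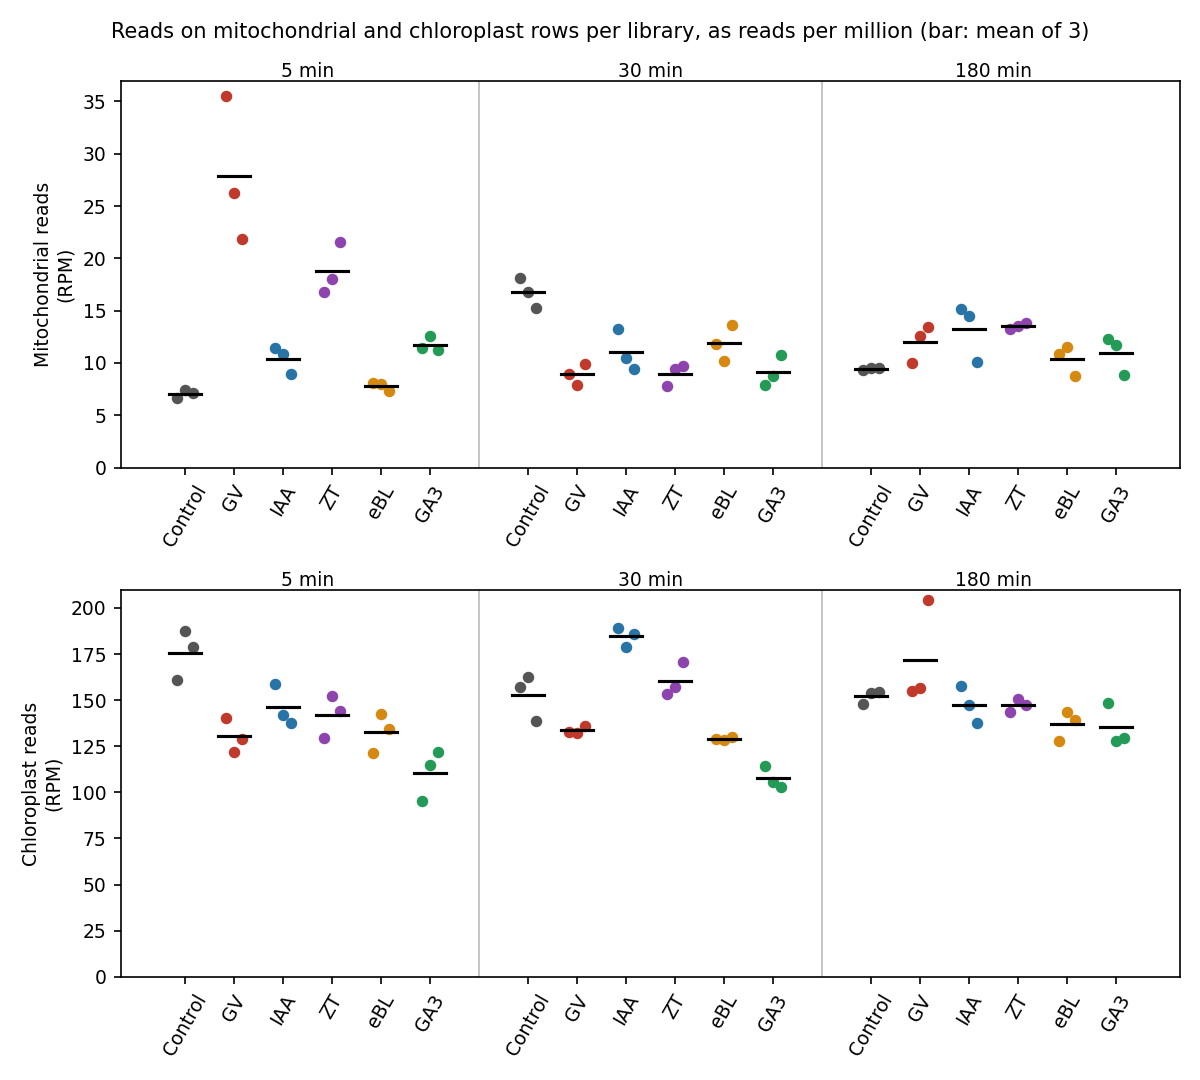
Reads on all 149 mitochondrial rows (top) and all 120 chloroplast rows (bottom) in RPM, with 1 point per library and a bar at the mean of 3, for 6 treatments at 5, 30 and 180 min. The GV libraries at 5 min (21.8 to 35.5 RPM) lie above every other library, while the control is lowest at 5 min (6.64 to 7.39) and highest of its time at 30 min (15.3 to 18.1).

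By kind of product, open reading frames held 37.3% of all mitochondrial reads over 84 rows, of which 31 had none. Complex I held 18.0% over 14 rows, complex IV 14.6% over 3 rows and ATP synthase 7.69% over 5 rows. Kinds were read from the row names, with ORF25 placed under ATP synthase. ATMG00090 (1124 reads) and YMF19 (21 reads) were left as other or unnamed, so a kind may have further rows. Within a complex the reads were unequal. For complex IV, COX1 had 1154 reads and COX2 744, but COX3, the remaining subunit, had 15. COB, the only complex III subunit encoded there, had 1 read in 54 libraries, and so had the complex I gene NAD6. The 21 transfer RNA rows held 25 reads together. RRN5, the 5S ribosomal RNA, had 125 reads and was the only ribosomal RNA row of the table; the large and small ribosomal RNAs were not analysed here.

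The 22 genes were low throughout, and ORF111D was the single one at 1 FPKM or more in all 18 groups. NAD5B had the highest mean level, 4.32 FPKM, followed by ORF111D (2.34), NAD4L (1.26) and ORF149 (1.18). In 16 of the 22 the average was under 10 reads per library, and 5 were never at 0. The highest of the 18 group means was that of GV at 5 min in 16 genes. In GV at 5 min 18 of the 22 were at 1 FPKM or more, against 2 in the control of that time, RRN5 and ORF111D. ATMG00090 and ORF262 passed the threshold through GV at 5 min alone, so their rise there was built into the choice. Both are among the 16 and the 18, and these counts re-use the values that chose the genes. Counts of calls that involve GV at 5 min are also given without ATMG00090 and ORF262. ORF110B passed through eBL at 30 min alone, ORF107H through the control at 30 min alone and NAD3 through IAA at 30 min alone. Their peaks there were likewise built into the choice.

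**Figure D2:**
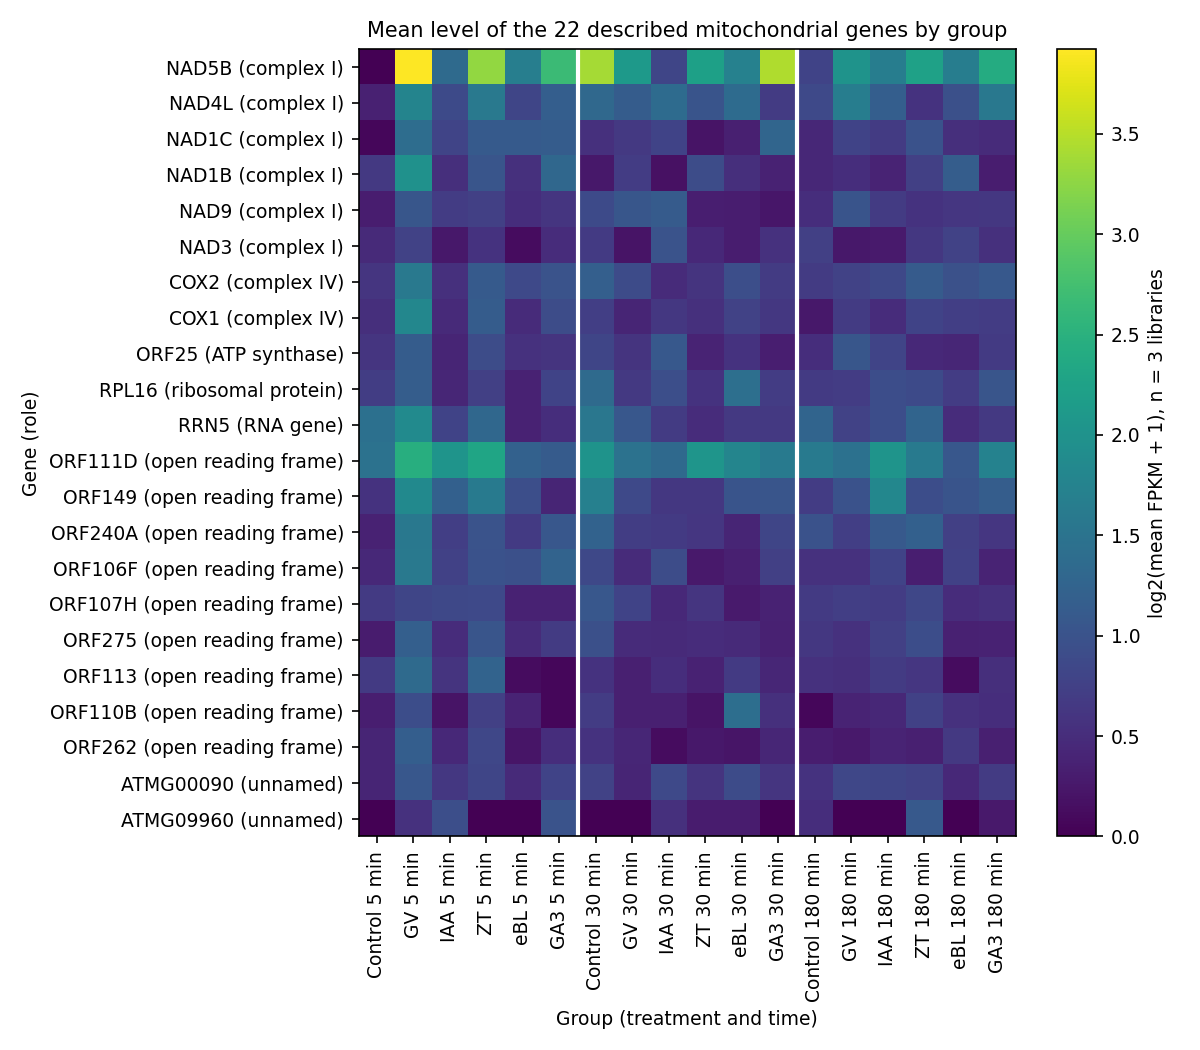
Mean level of the 22 genes in the 18 groups as log2(mean FPKM + 1), with genes grouped by role and white lines between the times. The column of GV at 5 min holds the highest level of 16 genes, ATMG00090 and ORF262 among them. The row of NAD5B holds the highest level of all, 14.1 FPKM.

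Compounds were set against the control of their own time by limma on log2(FPKM + 1) across 10622 genes, with a gene called at a Benjamini-Hochberg adjusted p under 0.05. With GV at 5 min, 13 of the 22 mitochondrial genes were called higher and 0 lower, against 7.82% of all genes tested called higher and 3.16% lower. Without ATMG00090 and ORF262 the count was 11 of 20. The median log2 change was 0.81 for the 22 genes, 0.03 for all genes tested and -0.26 for the tested chloroplast genes. All 22 changes were above 0. Without ATMG00090 and ORF262 the median was 0.88, and all 20 changes were above 0. GV at 5 min is among the groups through which genes reached 1 FPKM, so a count over the 22 is partly set by the threshold. With no filter on low values, 19 of the 101 mitochondrial rows with a read were called higher, against 4.83% of all rows tested in that way. Of the 13 calls, 9 stayed under every alternative tried (8 without ATMG00090), and NAD1B, ORF106F, ORF111D and ORF262 did not. Losses named below are mostly for single libraries, and several of those calls were also lost under other processing alternatives.

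Among the complex IV genes, COX1, the catalytic core subunit of cytochrome c oxidase (ATMG01360, Mt 349830 to 351413, minus strand, in the TAIR10 coordinates of the table), carried the most reads of any mitochondrial gene. At 5 min its level was 0.378, 0.415 and 0.532 FPKM in the 3 control libraries and 3.11, 2.13 and 2.28 FPKM with GV, from 12, 13 and 16 against 96, 63 and 70 reads. The GV libraries lay far above the control with no overlap. The log2 change was 1.27 ± 0.14 (SE; limma adjusted p = 3.93e-09), and on the reads themselves the ratio was 5.71, with an exact 95% interval for counting error of 4.08 to 8.17. At 30 min the control had 0.629, 0.510 and 0.827 FPKM and GV 0.236, 0.388 and 0.355 FPKM. GV was then the lower group, again with no overlap, but the change was not called. At 180 min the control had 0.225, 0.119 and 0.243 FPKM and GV 0.555, 0.720 and 0.544 FPKM. GV was higher in every library, by 0.43 ± 0.14 on the log2 scale (limma adjusted p = 0.0488). The call was kept in 3 of 12 alternatives, and it was lost when any 1 control or GV replicate was left out. Without the filter on low values, under quantile normalization and with a replicate block it was lost too (highest limma adjusted p over all alternatives 0.171).

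COX2, which carries the copper site that takes electrons from cytochrome c (ATMG00160, Mt 40502 to 42628, minus strand), followed COX1 at 5 min. Its levels were 0.382, 0.775 and 0.404 FPKM in the control and 2.88, 1.64 and 1.52 FPKM with GV. The groups did not overlap, and the log2 change was 0.97 ± 0.20 (limma adjusted p = 0.000374). At 30 min the control had 1.46, 1.17 and 1.18 FPKM and GV 0.820, 1.07 and 0.718 FPKM, and at 180 min the control had 0.782, 0.362 and 0.677 FPKM and GV 0.594, 0.886 and 0.648 FPKM. GV was lower in all 3 libraries at 30 min and overlapped the control at 180 min, and neither change was called.

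Complex I passes electrons from NADH to ubiquinone, and its mitochondrial subunits form part of its membrane arm and of its peripheral arm. Of its 6 described genes, 4 were called higher with GV at 5 min: NAD5B, NAD4L, NAD1C and NAD1B. NAD9, a peripheral arm subunit, missed the threshold at a log2 change of 0.75 (limma adjusted p = 0.0549), and NAD3, a membrane arm subunit, had 0.29.

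NAD5B (ATMG00665, Mt 190740 to 190761, minus strand) is a single exon of 22 bases in the table, an inner piece of the trans-spliced NAD5 gene, which encodes a proton-pumping subunit of the membrane arm. It is shown in full because its brevity sets its FPKM scale. The exon of the same length in RefSeq's TAIR10.1 mitochondrion (chrMt:360107-360128, plus strand there) reads as follows.
nad5 exon 3: gatatgatgattggtttaggta
On so short a row 1 read was worth 1.91 to 2.56 FPKM. Control libraries at 5 min had 0, 0 and 0 reads and GV libraries 11, 4 and 3, that is 25.7, 9.75 and 7.05 FPKM. The GV group was therefore at least 6.14-fold higher than a limit of 3 reads over the control group, and the log2 change of 3.72 ± 0.81 (limma adjusted p = 0.00119) depends on the pseudocount. At 30 min the control had 5, 6 and 1 reads and GV 2, 0 and 2, and at 180 min the control had 0, 0 and 1 and GV 1, 2 and 1. The groups overlapped at both times.

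NAD4L, a small membrane arm subunit (ATMG00650, Mt 188929 to 189231, minus strand), had 0, 0.835 and 0 FPKM in the control at 5 min and 1.86, 3.18 and 2.22 FPKM with GV. All GV libraries lay above the control, by 1.46 ± 0.36 on the log2 scale (limma adjusted p = 0.00452). At 30 min the control had 1.32, 1.60 and 1.62 FPKM and GV 1.59, 0.553 and 1.48 FPKM, and at 180 min the control had 1.18, 0.623 and 0.636 FPKM and GV 1.02, 2.13 and 3.35 FPKM. The groups overlapped at 30 and 180 min, and neither change was called.

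NAD1C holds exons of NAD1, a membrane arm subunit next to the ubiquinone site (ATMG00516, Mt 143219 to 147048, minus strand). At 5 min it had 0, 0.159 and 0 FPKM in the control, a single read in all, and 1.94, 1.69 and 1.30 FPKM with GV, from 12, 10 and 8 reads. The groups were apart, with a ratio of 30.7 on the reads and an exact 95% interval of 5.10 to 1252, and a log2 change of 1.32 ± 0.27 (limma adjusted p = 0.000507). At 30 min the control had 0, 0.677 and 0.686 FPKM and GV 0.673, 0.527 and 0.530 FPKM, and at 180 min the control had 0.481, 0.297 and 0.303 FPKM and GV 0, 1.09 and 1.12 FPKM. The groups overlapped at both times. The interval of NAD1C spans the maturase gene MATR, which lies on the same strand. The counted length was 318 bases for NAD1C and 2019 for MATR, so MATR cannot lie wholly within the counted exons of NAD1C. Whether the pair shared reads was not tested.

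The 3 open reading frames of unknown function that were called in the most comparisons are ORF149, ORF240A and ORF106F. ORF149 (ATMG00660, Mt 190104 to 190553, minus strand) had 0.443, 0.900 and 0.117 FPKM in the control and 3.31, 2.86 and 1.72 FPKM with GV, a log2 change of 1.29 ± 0.24 (limma adjusted p = 0.00015). ORF240A (ATMG00690, Mt 203588 to 204310, minus strand) had 0.207, 0.630 and 0.0729 FPKM against 2.2, 1.78 and 1.93 FPKM, a change of 1.21 ± 0.23 (limma adjusted p = 0.000181). ORF106F (ATMG01130, Mt 289197 to 289517, minus strand) had 0, 0.630 and 0.492 FPKM against 2.88, 1.84 and 1.29 FPKM, a change of 1.12 ± 0.32 (limma adjusted p = 0.0153). No control library reached any GV library in these genes. The ORF106F call was lost without control replicate 1 or GV replicate 1, and with a pseudocount of 0.1 FPKM.

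The later times separated them. At 30 min ORF149 had 2.10, 2.51 and 2.18 FPKM in the control and 0.594, 0.496 and 1.37 FPKM with GV, so that GV fell below every control library, by 0.87 ± 0.24 on the log2 scale (limma adjusted p = 0.0235). ORF149 was the 1 of 22 genes called with GV at 30 min (background 3.48% lower), and the call was lost without any 1 of control replicates 1, 2 and 3 or GV replicates 1 and 2. ORF240A had 1.45, 1.49 and 1.13 FPKM in the control and 0.296, 0.695 and 0.933 FPKM with GV, and ORF106F had 1.24, 0.336 and 0.850 against 0.333, 0.870 and 0 FPKM. The ORF240A groups did not overlap and those of ORF106F did, and neither change was called.
At 180 min ORF149 had 0.567, 0.524 and 0.749 FPKM in the control and 0.919, 0.992 and 1.01 FPKM with GV. ORF240A had 1.06, 1.37 and 0.533 against 0.858, 0.754 and 0.351 FPKM, and ORF106F 1.27, 0.147 and 0 against 0, 0.309 and 1.11 FPKM. GV was the higher group for ORF149 without overlap, the other groups overlapped, and no change was called.

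**Figure D3:**
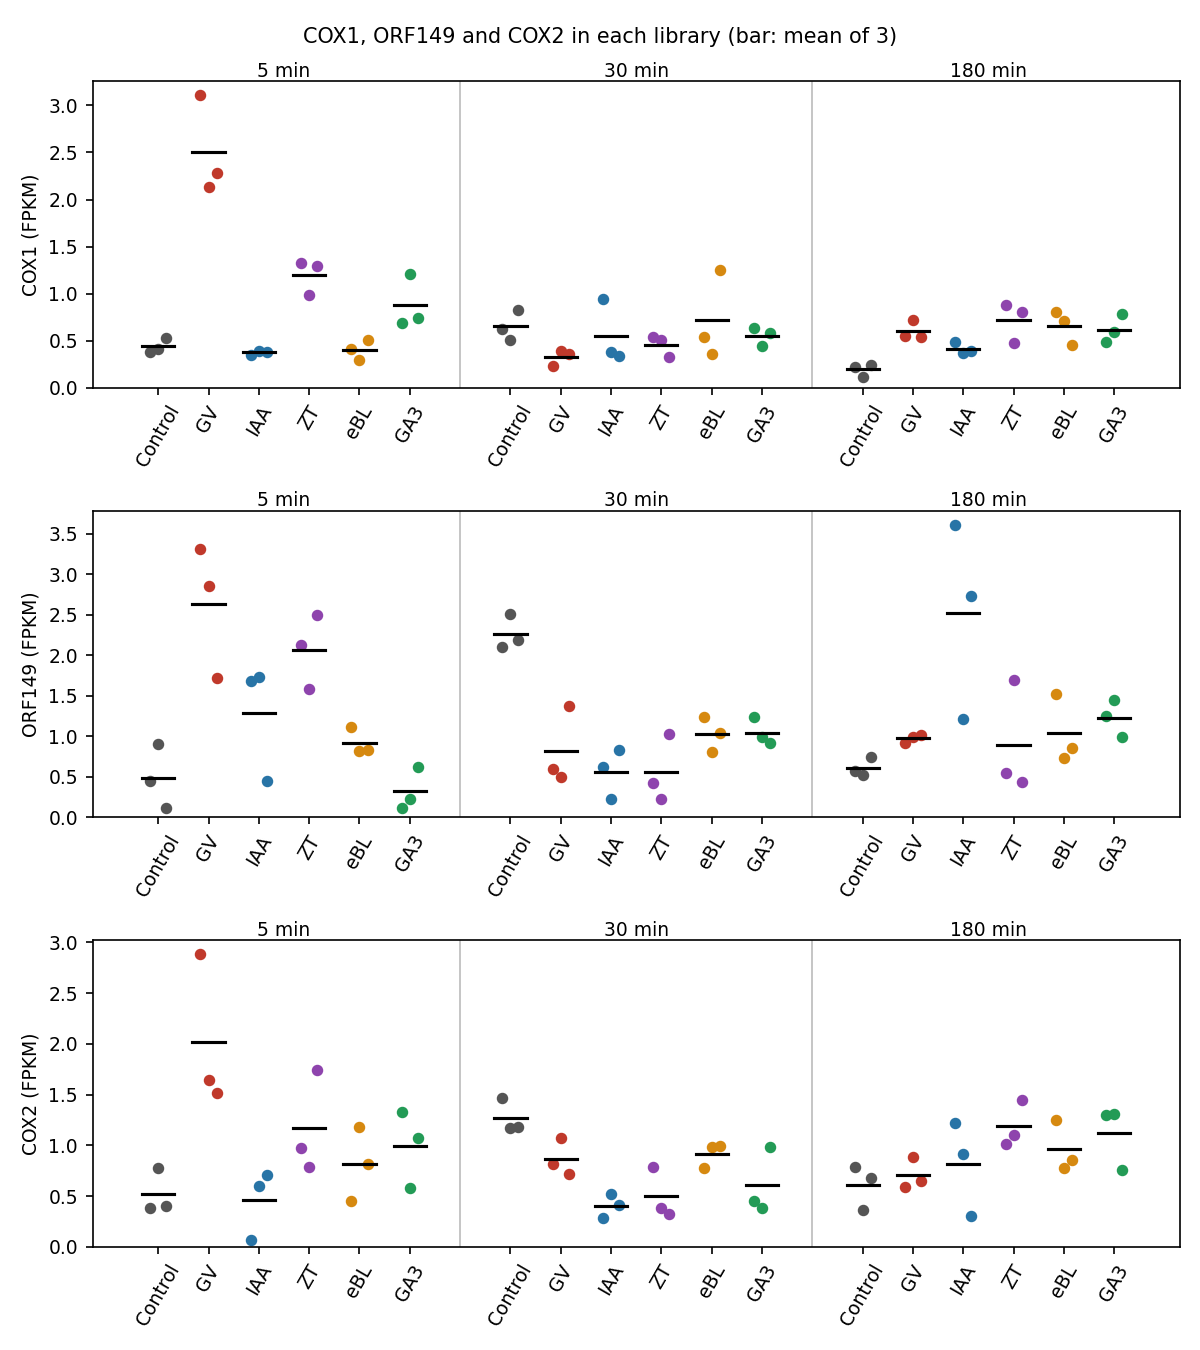
Level of COX1, ORF149 and COX2 in FPKM in each of the 54 libraries, with 1 point per library and a bar at the mean of 3, by treatment and time. COX1 is highest with GV at 5 min (2.13 to 3.11 FPKM), and ORF149 is high with GV at 5 min (1.72 to 3.31 FPKM), in the control at 30 min (2.10 to 2.51 FPKM) and with IAA at 180 min (1.22 to 3.61 FPKM).

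The remaining calls with GV at 5 min were NAD1B (log2 change 1.37), which holds further exons of NAD1, and the open reading frames ORF275 (0.89), ORF111D (0.86) and ORF262 (0.75), with ATMG00090 (0.67). GV replicate 1 had the most reads of ORF111D, 51 against 22 and 14 in the other GV libraries, and the call was lost without it or without control replicate 1 or 2. The ORF111D call was also lost under quantile normalization and with voom on recovered reads. NAD1B lost its call without control replicate 1 or with a pseudocount of 0.1 FPKM. ORF262 lost its call without control replicate 1 or GV replicate 1 or 3, with that pseudocount, and with voom. The genes named for ATP synthase or the ribosome showed no call. ATMG00090 is a row without a name, so it is not placed in a role here. ORF25, known as the ATP synthase subunit gene atp4, had a log2 change of 0.52 (limma adjusted p = 0.148), RPL16, a protein of the large ribosomal subunit, 0.41 (0.52) and RRN5 0.53 (0.566). ORF107H had the change nearest to 0, at 0.05.

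**Figure D4:**
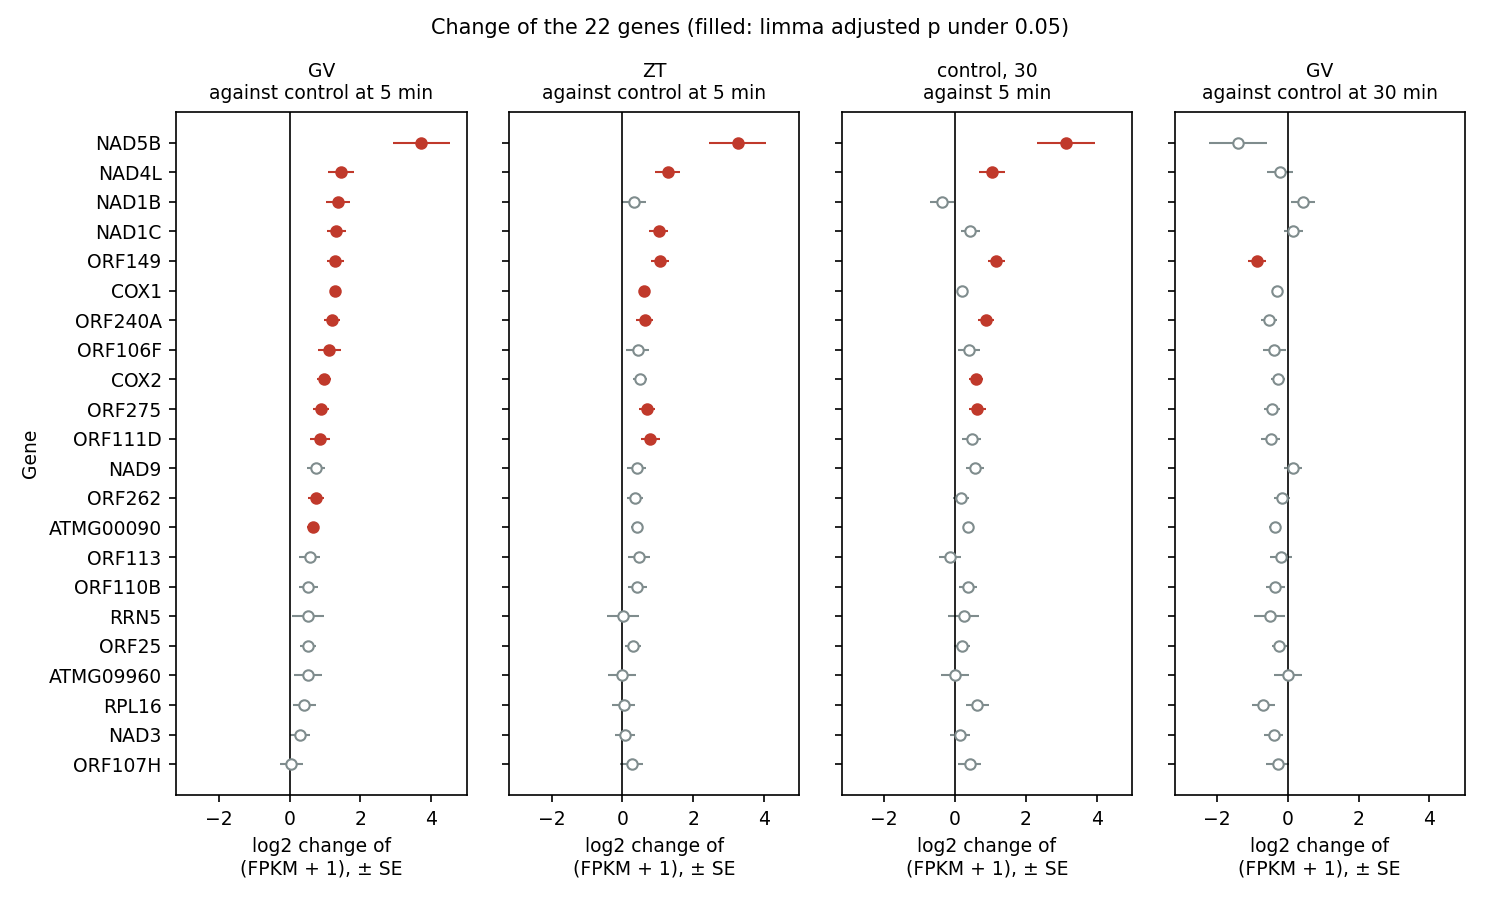
Change of the 22 genes on the log2(FPKM + 1) scale with its SE, for GV and ZT against the control at 5 min, the control at 30 against 5 min, and GV against the control at 30 min, with genes in the order of the first panel and filled points for a limma adjusted p under 0.05. The filled points number 13, 8 and 6 on the higher side and 1 on the lower side (ORF149, GV at 30 min).

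ZT at 5 min had 8 of 22 genes higher and 0 lower, against 19.5% and 8.02% of all genes. They were NAD5B (log2 change 3.26), NAD4L (1.28), ORF149 (1.07), NAD1C (1.03), ORF111D (0.80), ORF275 (0.70), ORF240A (0.63) and COX1 (0.61). COX1 stood at 1.33, 0.985 and 1.30 FPKM with ZT, above every control library and below every GV library. The call of ORF275 was lost without control replicate 2 or ZT replicate 3, that of ORF111D without control replicate 1 or 2 or ZT replicate 3, and that of ORF240A without control replicate 1 or 3 or ZT replicate 1 or 3 (highest adjusted p 0.175, 0.186 and 0.167 over the alternatives in limma). The other 5 stayed under every alternative. The median log2 change of the 22 genes was 0.43, beside 0.07 for all genes. ZT and GV were given at different doses, 1 and 10 µM, so their values are set side by side only. GA3 gave 5 calls higher, near its background of 23.7%, namely NAD5B (2.59), NAD1C (0.97), ORF106F (0.80), ORF240A (0.68) and COX1 (0.38), of which NAD5B stayed under every alternative. NAD1C lost its call without GA3 replicate 2, COX1 without it or control replicate 1 or 2, ORF240A without control replicate 1 or 3 or GA3 replicate 1 or 3, and ORF106F without control replicate 1 or 3 or any 1 GA3 replicate (highest limma adjusted p over all alternatives 0.0744, 0.4, 0.141 and 0.223). With eBL the only call was NAD1C (1.02; background 2.27% higher), and it was lost without any 1 of control replicates 1, 2 and 3 or eBL replicates 1 and 3. With IAA 0 of 22 were called by limma, against 12.2% of all genes in either direction; 3 had an unadjusted p under 0.05, and 0 were called by voom on recovered reads. The 5 compounds share 1 set of control libraries, in which NAD5B had no read and NAD1C had 1.

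The control itself changed with time. Between 5 and 30 min 6 of the 22 genes rose in the control and 0 fell, against 17.3% and 14.1% of all genes. They were NAD5B (3.13), ORF149 (1.17), NAD4L (1.03), ORF240A (0.87), ORF275 (0.63) and COX2 (0.59), and 3 of the calls (NAD5B, ORF149 and ORF240A) stayed under every alternative. COX1, with a change of 0.21, was not among them. Without control 5 min replicate 3 the count was 3. From 30 to 180 min 0 genes rose and 3 fell in the control (background 13.4% higher and 9.08% lower): NAD5B (-2.57), ORF149 (-1.02) and COX1 (-0.47). The ORF149 call stayed under every alternative. NAD5B lost its call without replicate 1 or 2 of either time, and COX1 without replicate 3 at 30 min or replicate 2 at 180 min (highest limma adjusted p over all alternatives 0.0988 and 0.0798).

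At 30 min, against this higher control, most calls were downward. IAA gave 3 lower (background 2.66%), ZT 3 lower (19.5%), eBL 2 lower (20.6%) and GA3 2 lower (16.8%) and 1 higher, NAD1C (14.4%). ORF149 fell with all 5 compounds, by 1.10 with ZT, 1.09 with IAA, 0.87 with GV, 0.69 with eBL and 0.68 with GA3 on the log2 scale. COX2 fell by 0.70 with IAA, by 0.61 with ZT and by 0.52 with GA3. ORF240A fell by 0.85 with eBL and by 0.63 with ZT, and NAD5B by 2.56 with IAA. The calls of ORF149 with ZT and IAA and of ORF240A with eBL stayed under every alternative. ORF149 kept its call in 3 of 12 alternatives with GA3 (lost without any 1 control replicate or GA3 replicate 2 or 3, highest limma adjusted p over all alternatives 0.163) and in 7 of 11 with eBL (lost without control or eBL replicate 2, 0.174). COX2 kept its call in 3 of 12 with GA3 (lost without any 1 control replicate or GA3 replicate 1 or 2, 0.159), in 9 of 12 with IAA (lost without control or IAA replicate 1, 0.0767) and in 10 of 12 with ZT (lost without ZT replicate 3, 0.0833). NAD5B with IAA was kept in 6 of 12 (lost without control replicate 1 or 2 or IAA replicate 1 or 3, 0.187), ORF240A with ZT in 7 of 12 (lost without control replicate 1 or 2 or ZT replicate 3, 0.164) and NAD1C with GA3 in 6 of 12 (lost without control replicate 1 or GA3 replicate 2 or 3, 0.267). These comparisons again share 1 set of control libraries, and the counts for ZT, eBL and GA3 are at or below their backgrounds. Without the outlying eBL library the eBL count stayed at 2, and through the shared estimate of the spread the counts became 5 for ZT and 5 for GA3. RPL16 had its highest group mean with eBL at 30 min, from 1.49, 0 and 3.57 FPKM, of which the largest value belongs to that library; without it the mean was 0.747 FPKM, below the 1.56 FPKM of the control. ORF110B was highest there too, at 1.66 FPKM with that library and 1.00 FPKM without it. It passed the threshold through this group alone, so its peak there was built into the choice.

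At 180 min COX1 was the gene called most often, higher with ZT (0.52), eBL (0.46), GA3 (0.43) and GV (0.43), where the control was at its lowest group mean of the series for this gene, 0.196 ± 0.067 FPKM. With IAA the 1 call was ORF149 (1.06), at 3.61, 1.22 and 2.73 FPKM against 0.567, 0.524 and 0.749 FPKM in the control. ZT had a further call, ORF110B (0.68). The COX1 calls with ZT and eBL and the ORF149 call with IAA stayed under every alternative. COX1 with GA3 lost its call without control replicate 2 or GA3 replicate 3, and ORF110B without replicate 1 or 3 of the control or of ZT (highest limma adjusted p over all alternatives 0.0697 and 0.123). The higher backgrounds at this time were 5.59% for GV, 11.2% for IAA, 17.1% for ZT, 16.2% for eBL and 17.3% for GA3, and 1 or 2 calls of 22 lie at or below them.

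The change of the GV effect between times was tested as an interaction. Between 5 and 30 min the effect was lower at 30 min in 11 of 22 genes and higher in 0, against 7.58% and 2.95% of all genes. Without ATMG00090 and ORF262, for which a lower effect at another time was built into the choice, the count was 10 of 20. For COX1 the effect moved from 1.27 to -0.32 (difference -1.59 ± 0.20, limma adjusted p = 7.15e-08), and for ORF149 from 1.29 to -0.87 (difference -2.17 ± 0.35, limma adjusted p = 9.44e-06). Both sides of this difference contain the control, whose levels rose between the times. Between 5 and 180 min the difference was lower in 4 genes (background 5.46%): ORF240A, COX2, COX1 and ORF275.

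Other features of the libraries differed between GV and the control at 5 min as well. The summed level of the seed storage list (6 of 7 rows, 1 of them detected in every library) was 18.8 to 20.7 FPKM in the control and 4.67 to 6.06 FPKM with GV, with AT2S4 at 0 in all 3 control and 2 GV libraries and AT2S1 at 0 in 2 control libraries and 1 GV library. The root list (8 of 9 rows, none at 0 in these groups) summed to 16.1 to 18.0 FPKM in the control and 11.7 to 13.3 FPKM with GV. The photosynthesis list (11 of 12 rows, none at 0) summed to 45465 to 48703 FPKM and 41644 to 45351 FPKM. With ZT at 5 min, where the mitochondrial sum was higher as well, the sums were 4.48 to 6.56 FPKM for seed storage (AT2S1 and AT2S4 detected in every library), 8.73 to 10.8 FPKM for root and 37910 to 40049 FPKM for photosynthesis. With GA3 at 5 min they were 8.42 to 10.2, 41.7 to 44.0 and 35964 to 37148 FPKM, and in the control at 30 min 11.6 to 12.4, 15.2 to 16.2 and 50990 to 58523 FPKM. Against the control at 5 min, seed storage sums were thus lower in all 4 of these groups, and root sums were lower with GV and ZT and higher with GA3. Single rows did not all follow the sums. Of 5 seed storage rows tested, 0 were called higher and 2 lower with GV (7.82% and 3.16% of all genes). With ZT 2 were higher and 3 lower (19.5% and 8.02%), and with GA3 1 and 2 (23.7% higher). In the control at 30 min 2 were higher and 2 lower (17.3% and 14.1%). Of 8 root rows, 0 were higher and 1 lower with GV, and 0 and 5 with ZT. With GA3 the root counts were 6 and 1, and in the control at 30 min 3 and 4. The share of all genes called lower with GA3 at 5 min is not given here, so the lower counts with GA3 stand without a background. The part of these markers in the mitochondrial values was not tested.

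Most of the mitochondrial genome also has a copy in the nucleus. In the TAIR10.1 reference, 73.0% of the 367808 bases of the mitochondrial sequence matched the nuclear chromosomes at 98% identity or more over at least 100 bases, and 72.8% matched chromosome 2, where the copy spans chr2:3239038-3509765. The mitochondrial map of the table differs from that reference, since 0 of 103 matched loci share a start, so loci were matched by name or exon length. Of these 103 loci, 75 were copied over their whole length and had a median of 3 reads over the 54 libraries, with 62 of them under 54 reads. The 22 loci without a copy had a median of 142.5 reads, and the 6 copied in part 141. Of the 18 described genes that could be matched, 11 had no copy, 3 were copied in part and 4 (NAD1C, NAD3, ORF262 and ORF107H) in full.

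The beginnings of a gene of each kind are shown, since COX1, with the most reads of all, and COB, with 1 read, differ in this respect. The first 60 bases of cob on the mitochondrion (chrMt:182799-182858, minus strand) and of its copy (chr2:3450863-3450922, plus strand) have 0 mismatches, and cox1 (chrMt:116286-116345, minus strand) has no nuclear copy at these limits. All are RefSeq sequence of TAIR10.1, with the start codon in capitals.
cob, mitochondrion: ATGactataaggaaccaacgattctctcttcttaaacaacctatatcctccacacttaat
cob, chromosome 2 copy: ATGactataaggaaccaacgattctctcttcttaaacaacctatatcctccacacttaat
cox1, mitochondrion: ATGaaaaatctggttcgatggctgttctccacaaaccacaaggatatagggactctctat
How the counting treated a read with several placements is not given in the sources used here, and its part in the low counts was not tested. Loci of the table inside the chromosome 2 copy numbered 128, of which 51 had no read. Their summed reads were 77 to 118 in the control and 250 to 332 with GV at 5 min. They were 206 to 256 with ZT at 5 min and 198 to 237 in the control at 30 min. With IAA at 180 min they were 178 to 295, where the mean mitochondrial sum was 13.3 RPM, below that of these last 3 groups.

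**Figure D5:**
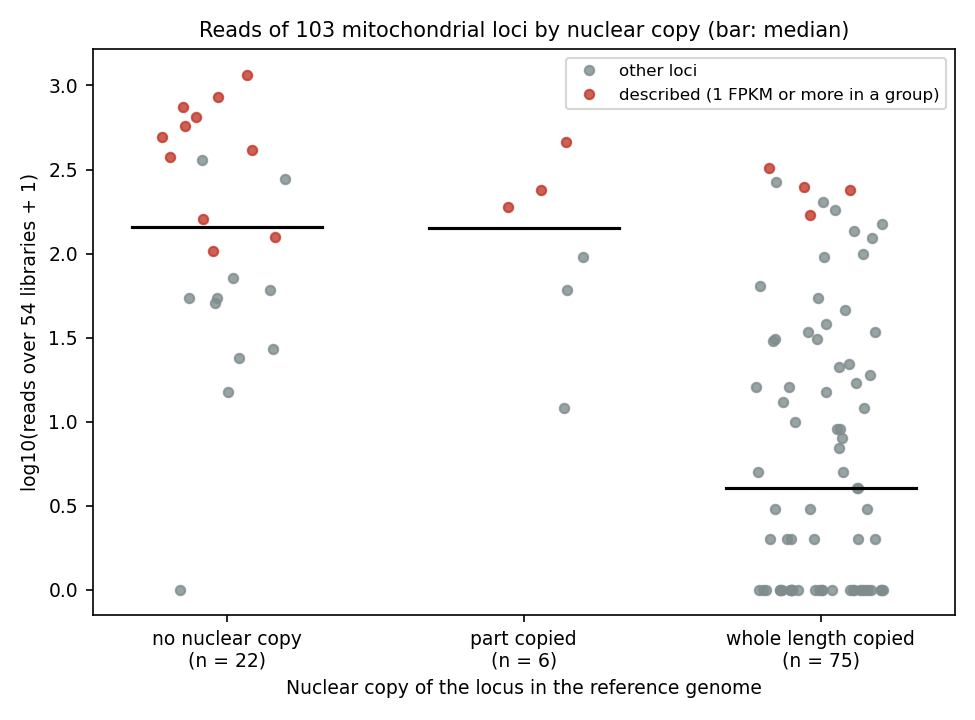
Reads over the 54 libraries of 103 mitochondrial loci as log10(reads + 1), by whether the locus has no nuclear copy (22), a partial copy (6) or a copy of its whole length (75) in the reference genome, with a bar at the median and described genes in red. The medians are 142.5, 141 and 3 reads, and 11 of the 18 matched described genes have no copy.

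The described genes also lay unevenly on the genome. The minus strand of the table's map held 19 of the 22, against 88 of all 149 rows. ORF149, NAD5B and ORF275 are neighbours there, with NAD5B 186 bases from ORF149 and 293 bases from ORF275, and NAD4L lies 266 bases from ORF25. RPL16 overlaps ATMG00090 by 134 bases on the same strand, ORF107H lies within the span of NAD2B, and RRN5 is 9 bases from ORF111D, so reads of these pairs may have been divided between them. Whether the counted bases of a pair overlap was not tested. Use of strand in the counting is not given in the sources used here.

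Nuclear genes that serve mitochondria were taken from lists named by function. Of a list of 19 genes for mitochondrial RNA synthesis, processing and decay, 15 were tested, and with GV at 5 min 0 were called higher and 1 lower (7.82% and 3.16% of all genes). The lower gene was RPOTM (AT1G68990), the RNA polymerase of mitochondria, at -0.33 ± 0.07 (limma adjusted p = 0.00113). The median log2 change of the list was -0.06, beside 0.03 for all genes. With ZT at 5 min 1 gene was higher and 6 lower (19.5% and 8.02% of all genes), among them RPOTM (-0.54), the splicing maturase NMAT2 (-0.42) and the dual-targeted polymerase RPOTMP (-0.36). In the control between 5 and 30 min 0 rose and 3 of 15 fell, RPOTM by 0.39, against 17.3% and 14.1% of all genes. Mitochondrial RPM were higher in sum in each of these 3 comparisons.

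A list of 16 genes of alternative respiration and mitochondrial stress had 8 tested members. With GV at 5 min 1 was higher, the alternative NAD(P)H dehydrogenase NDB3 (0.73 ± 0.11, limma adjusted p = 2.90e-06), and 1 lower, NDB4 of the same family (-1.29 ± 0.13, limma adjusted p = 1.94e-10), where 7.82% and 3.16% of all genes were. With ZT at 5 min 4 were higher and 3 lower (19.5% and 8.02% of all genes), with NDB3 at 0.97 and NDB4 at -1.97. Of 31 nuclear genes for subunits of the respiratory chain and ATP synthase, 30 were not analysed here. The remaining gene, SDH2-2, an iron-sulfur subunit of complex II, had a log2 change of 0.29 (limma adjusted p = 0.364) with GV at 5 min.

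With IAA at 180 min, 7 of 8 tested genes of the alternative respiration and mitochondrial stress list were called higher by limma and 0 lower, against 11.2% and 6.48% of all genes, with a median log2 change of 0.61, beside 0.05 for all genes. They included OM66, an outer membrane protein (1.15 ± 0.16, limma adjusted p = 1.86e-07). With ZT at 180 min 0 were higher and 6 lower, against 17.1% and 24.7%, with a median of -0.64. In the list of mitochondrial RNA synthesis, processing and decay, eBL at 180 min gave 7 of 15 lower and GA3 6 of 15, against 21.8% and 23.6% of all genes, and 0 higher, against 16.2% and 17.3%. PNP_MT, the polynucleotide phosphorylase of mitochondria, had -0.98 with eBL (limma adjusted p = 5.54e-09). ZT at 180 min gave 4 of 15 higher and 0 lower, against 17.1% and 24.7%, with RPOTM at 0.49. The mitochondrial rows at 180 min differed from the control by ratios of 1.10 to 1.43 in sum.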

How the data were processed

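The authors deposited 1 table of FPKM values with a column per library, gene names, TAIR10 coordinates and gene lengths. The unit was identified from the values, since values multiplied by gene length fell on whole steps of a library (100% of values within 0.05 reads). Bowtie2 2.2.3 and the TAIR10 build are named per the submitters' processing notes; which counter was used, with what strand setting and what handling of multiple placements, is not given in the sources used here. Columns were matched by time, compound and number. The one column name that is neither control nor hormone was taken as GV by elimination, and every GV value rests on that match. Of 24000 lines, 3 were damaged and left out.

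Reads were recovered from the steps, so RPM refer to the implied library totals. Intervals on reads cover counting error only. The 10622 genes that reached 1 FPKM in a group mean were tested with limma 3.58.1 in R 4.3.3 (trend, robust) on log2(FPKM + 1), with 1 mean per group, all 54 libraries and 36 residual degrees of freedom. Changes on this scale understate those of low genes. A gene was called when its p, adjusted by Benjamini-Hochberg over all genes tested, was under 0.05. The steps were also run on simulated data, with changes placed only in genes at 1 FPKM or more in the control at 5 min. Of the 22 members 2 reached that level there, so the simulation does not cover changes in genes as low as most members.

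Mitochondrial members are all rows with a locus beginning ATMG. Values of every library are given for the 8 genes called in the most of the 15 comparisons with the control, ties by the largest change, for GV and the control at each time; nuclear genes are up to 3 per list with the smallest adjusted p. The members and lists were chosen with earlier results of these data known. Nuclear copies were found with blastn 2.17.0 in TAIR10.1, whose nuclear coordinates overlap those of the table for 23498 of 23498 matched loci. Alternatives were a pseudocount of 0.1 FPKM, no filter on low values, quantile normalization, voom on recovered reads, a replicate block, and leaving out each library.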

Additional observations from a re-analysis of the deposited data

Results flagged for a closer look

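The effect of GV differed between times in 11 genes at 30 against 5 min and in 4 at 180 against 5 min, by an interaction contrast in limma; each is a difference of log2 changes, and each negative value means a lower effect at the later time. At 30 against 5 min the complex IV genes differed by -1.59 ± 0.20 (SE; COX1, limma adjusted p = 7.15e-08) and -1.25 ± 0.28 (COX2, limma adjusted p = 0.00118). The complex I genes differed by -5.13 ± 1.15 (NAD5B, which rests on few reads), -1.68 ± 0.52 (NAD4L) and -1.17 ± 0.39 (NAD1C), with limma adjusted p of 0.00162, 0.0268 and 0.0429. Among the open reading frames the differences were -2.17 for ORF149, -1.75 for ORF240A, -1.51 for ORF106F, -1.34 for ORF275 and -1.34 for ORF111D. The unnamed row ATMG00090 differed by -1.03. ATMG00090 reached 1 FPKM through GV at 5 min alone, so a lower effect at another time was built into its choice; without it 10 genes differed. Of these 10, 6 kept their call under every alternative, and NAD1C, NAD4L, ORF106F and ORF111D did not.

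At 180 against 5 min the differences were -1.46 for ORF240A, -0.99 for ORF275, -0.87 for COX2 and -0.85 for COX1, and ORF240A alone of these 4 kept its call under every alternative. For COX1 the GV effect was above 0 at both ends, 1.27 at 5 min and 0.43 at 180 min. All of these differences contain the control libraries, in which 6 of the 22 genes rose between 5 and 30 min.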

How the results depend on the processing

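The numbers of the 22 genes called at 5 min changed as follows. With GV, 13 became 11 with a pseudocount of 0.1 FPKM, 12 under quantile normalization and 12 with voom on recovered reads. IAA went from 0 to 1 with the smaller pseudocount, eBL from 1 to 0 with voom, and GA3 from 5 to 2 under quantile normalization. At 30 min GV had 0 with the smaller pseudocount and 0 with voom, voom left 1 each for IAA, ZT and eBL and 0 for GA3, and GA3 had 1 with the smaller pseudocount and 1 under quantile normalization. At 180 min GV had 0 under quantile normalization and eBL 3 with the smaller pseudocount. The GV effect at 180 against 5 min had 1 gene both with the smaller pseudocount and with voom.

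Without the filter on low values more mitochondrial rows were tested, and the counts were 5 for GV, 9 for IAA, 12 for ZT, 10 for eBL and 10 for GA3 at 30 min; 4 for IAA, 5 for ZT, 5 for eBL and 3 for GA3 at 180 min; 16 for the control at 30 against 5 min, 9 at 180 against 30 min, and 17 for the GV effect at 30 against 5 min. These counts are out of 101 mitochondrial rows, not out of the described genes alone, and their directions are not given. The share of all rows called without the filter was taken only for higher calls with GV at 5 min. For the comparisons listed here there is thus no background, and the larger counts do not show a stronger mitochondrial response. The cause of the other shifts was not tested.

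Replicate numbers did not pair the libraries: same-numbered libraries of a time had mean correlations of deviations of -0.000051, -0.003 and 0.0075 at 5, 30 and 180 min. With a replicate block the count at 5 min stayed at 13 for GV and became 9 for ZT, and at 180 min it was 0 for GV and 2 for eBL; 67 of 69 single-gene calls were kept.

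Leaving out 1 library gave ranges of 9 to 14 (GV), 0 to 1 (IAA), 6 to 11 (ZT), 0 to 1 (eBL) and 2 to 6 (GA3) at 5 min; 0 to 1, 1 to 3, 2 to 5, 2 to 6 and 1 to 5 at 30 min; and 0 to 1, 1 to 1, 1 to 3, 1 to 2 and 0 to 2 at 180 min, in the same order. The control had 3 to 6 at 30 against 5 min and 1 to 5 at 180 against 30 min, and the GV effect 7 to 12 and 2 to 5. GA3 at 5 min had 3 without control replicate 1 or 3 or GA3 replicate 3 and 2 without GA3 replicate 2. At 30 min IAA had 1 without control or IAA replicate 1, eBL 4 without control replicate 3 and 6 without eBL replicate 1, and GA3 1 without control replicate 1 or 3 or GA3 replicate 2 or 3. At 180 min ZT had 1 without control or ZT replicate 1 or 3, GA3 had 0 without control replicate 2 or GA3 replicate 3 and 2 without GA3 replicate 1, and eBL had 2 without eBL replicate 1 or 3. The control at 180 against 30 min had 1 without control 180 min replicate 2 and 5 without eBL 30 min replicate 3. The GV effect at 30 against 5 min had 7 without control 5 min replicate 1, and that at 180 against 5 min had 2 without control 5 min replicate 1 or 3, GV 5 min replicate 1, control 180 min replicate 1 or 3, or GV 180 min replicate 1. IAA at 5 min had 1 without IAA replicate 3. Over these fits 365 of 502 single-gene calls were kept, and no called change reversed its direction.

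Depth limits the single genes, since 16 of the 22 average under 10 reads per library, and a p that misses the threshold does not show equal levels.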

Other observations

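Several mitochondrial rows of known function stayed below 1 FPKM in every group. ATP6-2 and ATP6-1, a pair of genes for the same ATP synthase subunit, had 568 and 1 reads over the 54 libraries, and ATP1 and ATP9, of the same enzyme, had 53 and 12. Of 5 genes for cytochrome c maturation, CCB206 had 359 reads and CCB256 had 0. NAD7, a complex I subunit, had 266 reads, and MATR, a splicing maturase, 201.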
